A study of Rattus norvegicus with 192 samples.

Results

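Ametryn and simazine are s-triazine herbicides that were each given to male rat primary hepatocytes as a series of 6 doses, and they account for 12 of the 174 TempO-Seq libraries of the study's dose series. The libraries were chosen by the chemical named in their titles, with 6 libraries of ametryn at 0.14, 0.4, 1.2, 3.7, 11.1 and 33.3 µM and 6 of simazine at 0.4, 1.2, 3.7, 11.1, 33.3 and 100 µM. The controls were 8 libraries of cells given DMSO alone, replicates 2 to 9, and the labels put the vehicle at 0.1% for every culture and the exposure at 24 h. The other 27 chemicals of the study were also given at 6 doses each, and the study further holds 9 libraries of reference chemicals and 1 more of DMSO. The cells had been isolated from rat liver and plated on collagen. No strain or age of the rats is given in the labels, nor whether the wells came from 1 animal, so the p-values reflect only how much these wells varied, and that variation could be technical in origin. Each dose has 1 library, so each test was of the slope over a whole dose series, not of a single dose. The well was the unit of observation, and neither dose series was repeated.

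TempO-Seq measures RNA with pairs of short detector probes that are joined on their target transcript and counted by sequencing, so each value is a count for 1 probe. All 6 ametryn libraries were on plate 1, in row G, columns 1 to 6, with the highest dose in column 1. Simazine had its doses of 11.1 µM and above in row H of plate 1 and its 3 lower doses in row A of plate 2, in both cases in columns 7 to 9. The DMSO wells were in columns 10 to 12, replicates 2 and 3 on plate 1, replicates 4 to 6 on plate 2 and replicates 7 to 9 on plate 3. For ametryn, dose and well column therefore cannot be told apart. For simazine each of columns 7 to 9 held 1 of the higher doses on plate 1 and 1 of the lower doses on plate 2. Its dose and plate are therefore partly confounded. Both plates had DMSO wells, and plate was a term of the model.

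Both herbicides block electron transport at photosystem II in plants, a target that animal cells lack. They differ at the ring, where ametryn carries a methylthio group and simazine a chlorine atom, and in the side chains: ametryn has an ethylamino and an isopropylamino group, whereas both side chains of simazine are ethylamino groups. In the liver, s-triazines lose alkyl groups through cytochrome P450 enzymes and can be conjugated with glutathione. Hepatocytes themselves switch between a fed state, in which insulin and glucose raise the genes of glycolysis and fatty acid synthesis, and a fasted state, in which glucagon, acting through cyclic AMP and the factor CREB, raises the genes of glucose production. Related background for the other gene groups is that the receptors AhR, CAR, PXR and PPAR alpha and the factor NRF2 switch on enzymes that handle foreign compounds, fatty acids and oxidants.

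Library totals were 4740919 to 10712822 counts with the triazines and 2876741 to 8513985 with DMSO. Of the 20 libraries, 2 stood apart on the first principal component of all the study's libraries: DMSO replicate 5, at 2.74, and ametryn at 3.7 µM, at 2.83, against -1.12 to 0.36 in the other 18. Their median correlation with the DMSO libraries (log2 CPM) was 0.888 and 0.890, against 0.952 to 0.986 in the others. DMSO replicate 1, at a correlation of 0.736, was left out of all comparisons. The summed level of 14 hepatocyte markers was 35840 to 62170 CPM with DMSO, 31000 to 61990 with ametryn and 34720 to 45150 with simazine. The values of 62170 and 61990 CPM are those of the 2 libraries that stood apart, and without them the ranges were 35840 to 39770 CPM with DMSO and 31000 to 40420 CPM with ametryn. The 5 lower doses of simazine, at 42530 to 45150 CPM, lay above that DMSO range, and its dose of 100 µM, at 34720 CPM, lay below it. The part of this in the results was not tested. The summed level of 14 macrophage markers was 109 to 151 CPM with DMSO and 109 to 139 with ametryn. That of 11 stellate cell and fibroblast markers was 202 to 263 CPM with DMSO and 89.5 to 206 with ametryn, lowest at 33.3 µM. Col1a1 was at 0 in all 20 libraries, as were the bile duct markers Krt7 and Cftr. In such bulk libraries fewer cells of a type and less RNA per cell cannot be told apart.

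The results below turn on genes of the fasted and the fed state, and 2 promoter windows are shown because each holds a textbook binding motif of the regulator of 1 of these states. Each window runs from 250 bases before to 50 bases after the annotated start of the gene, 5′ to 3′ on the coding strand, from RefSeq on the build GRCr8. Capitals mark the motif. The first is that of Pck1, the gene of cytosolic phosphoenolpyruvate carboxykinase, on chr3:182348322-182348621 (plus strand), and the capitals mark the core of the cyclic AMP response element, TGACG, read from the opposite strand at 90 to 86 bases upstream.
Pck1: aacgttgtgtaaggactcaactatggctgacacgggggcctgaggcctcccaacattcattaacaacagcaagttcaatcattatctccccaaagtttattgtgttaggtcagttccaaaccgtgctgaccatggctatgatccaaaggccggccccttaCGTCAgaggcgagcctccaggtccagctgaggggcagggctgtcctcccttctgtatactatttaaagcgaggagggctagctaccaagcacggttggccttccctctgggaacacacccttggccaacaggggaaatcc
The second is that of Pklr, the gene of liver pyruvate kinase, on chr2:176841014-176841313 (plus strand), where the capitals mark a match to the consensus of the carbohydrate response element at 168 to 152 bases upstream.
Pklr: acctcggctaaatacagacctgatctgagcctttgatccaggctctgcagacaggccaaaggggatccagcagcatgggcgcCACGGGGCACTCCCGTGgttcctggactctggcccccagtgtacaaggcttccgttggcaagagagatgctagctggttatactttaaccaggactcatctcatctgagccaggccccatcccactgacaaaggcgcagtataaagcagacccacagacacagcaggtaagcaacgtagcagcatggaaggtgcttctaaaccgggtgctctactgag
On either strand, TGACG is in 21.2% of all 33469 promoter windows of this length and the consensus of the carbohydrate response element in 0.0747% of them. A match describes the letters of the window and says nothing about binding in these cells. Of the 104 genes that the naming rule selected, 69 had a window in the table.

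With ametryn, the gene of glucose production Pck1 and the citrate transporter gene Slc13a5 rose with dose, and Pklr, Acly, Acaca, Tkfc and Asns, which are described below, fell. Fbp1, another gene of glucose production, was called lower. Across all probes, 284 of the 11055 tested, or 2.57%, had a dose trend with ametryn, 104 of them (0.941%) higher and 180 (1.63%) lower (edgeR quasi-likelihood F test, Benjamini-Hochberg adjusted p under 0.05). At an unadjusted p under 0.05 there were 1632 (14.8%). These shares are the background for the counts given for each gene list below. The trend is a slope on log2(1 + dose), and each fitted change below is the log2 change that this slope gives at 33.3 µM, with its standard error. The calls rest on the library at 33.3 µM: without it 2 probes were called, and of the 72 calls of this trend for genes that are named by the rule or were described in addition, those for Rem1 and Slc2a2 remained. Both were called lower. For that reason the level in each library is given with each gene. A single library beyond all 8 DMSO libraries is common here: at 33.3 µM, 20.3% of all probes were higher than every DMSO library and 20.4% lower with ametryn, and 9.37% and 7.94% with simazine. Without DMSO replicate 2 the number was 121, without DMSO replicate 3 it was 126 and without the ametryn library at 3.7 µM it was 465. Within plate 1 alone, where the controls are DMSO replicates 2 and 3, 80 probes were called. When all 6 ametryn libraries were compared with DMSO regardless of dose, 4 probes (0.0362%) were called.

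Among the genes of the cyclic AMP and CREB list, 2 of 18 tested members were called higher with ametryn, Pck1 and Tat, and none lower. Of all probes, 0.941% were called higher and 1.63% lower. The median fitted change of the list was 0.40, against 0.01 over all probes. Pck1, the rate-limiting enzyme of glucose production, was at 3.87, 3.94, 4.04, 5.37, 8.19 and 28.0 CPM from the lowest to the highest dose of ametryn (CPM, a library's counts scaled to a common total with TMM factors). The 8 DMSO libraries had 3.52 to 5.2 CPM (median 4.46), so the libraries at 11.1 and 33.3 µM lay above all of them. That at 3.7 µM, which stood apart and had 24 counts, lay only just above the highest. The fitted change was 2.57 ± 0.28 (SE, adjusted p = 0.000156). It was 1.34 without the library at 33.3 µM (adjusted p = 0.194) and 2.55 within plate 1 (adjusted p = 0.00786). Tat, tyrosine aminotransferase, which breaks down tyrosine and is raised by glucagon and glucocorticoids, was at 90.0, 84.4, 93.4, 93.0, 132 and 152 CPM. With DMSO it was 70.0 to 90.4 CPM (median 78.1). The 4 highest doses lay above all DMSO libraries, and the fitted change was 0.86 ± 0.12 (adjusted p = 0.00106; 0.115 without the library at 33.3 µM).

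Other genes of the list did not follow Pck1. G6pc, the catalytic subunit of glucose-6-phosphatase, which releases free glucose, was at 0.983 CPM at 11.1 µM and 1.21 CPM at 33.3 µM of ametryn, against 1.70 to 5.90 CPM with DMSO. Its fitted change was -1.62 ± 0.69 (adjusted p = 0.269). Igfbp1, a binding protein of insulin-like growth factors that is high in fasting, was at 606 to 1281 CPM with ametryn and 352 to 742 CPM with DMSO, with a fitted change of 0.82 ± 0.47 (adjusted p = 0.455). Ppargc1a, a coactivator of the fasting response, was below the filter on low counts, at most 1.35 CPM with ametryn and 1.32 CPM with DMSO. Of the 18 members, 14 had a positive and 4 a negative fitted change. Fbp1, a gene of glucose production that is not on the list, was called lower with ametryn. Its call was lost on leaving out 4 of the 20 libraries in turn, ametryn at 33.3 µM among them (adjusted p = 0.256 at most).

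Slc13a5, the sodium-coupled citrate transporter of the hepatocyte membrane, was at 3.57, 3.59, 4.04, 6.71, 9.34 and 12.2 CPM with rising ametryn. It was at 2.04 to 4.0 CPM with DMSO (median 3.23), and the libraries from 3.7 µM upward lay above that range. The library at 1.2 µM, with 27 counts, was level with its upper end. The fitted change was 1.98 ± 0.32 (adjusted p = 0.00327; 0.118 without the library at 33.3 µM). Lpin2, a phosphatidate phosphatase of triglyceride synthesis, was at 101, 100, 162, 104, 179 and 287 CPM against 77.8 to 124 CPM with DMSO, a change of 1.35 ± 0.25 (adjusted p = 0.00733; 0.363 without the library at 33.3 µM). The muscle enolase gene Eno3 was at 28.4 CPM at 33.3 µM and 8.93 to 15.1 CPM at the lower doses, inside the DMSO range of 6.79 to 17.4 CPM. Its fitted change was 1.42 ± 0.33 (adjusted p = 0.0257). That call ended without DMSO replicate 2 (0.0739), DMSO replicate 3 (0.0613) or ametryn at 33.3 µM (0.57).

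**Figure D1:**
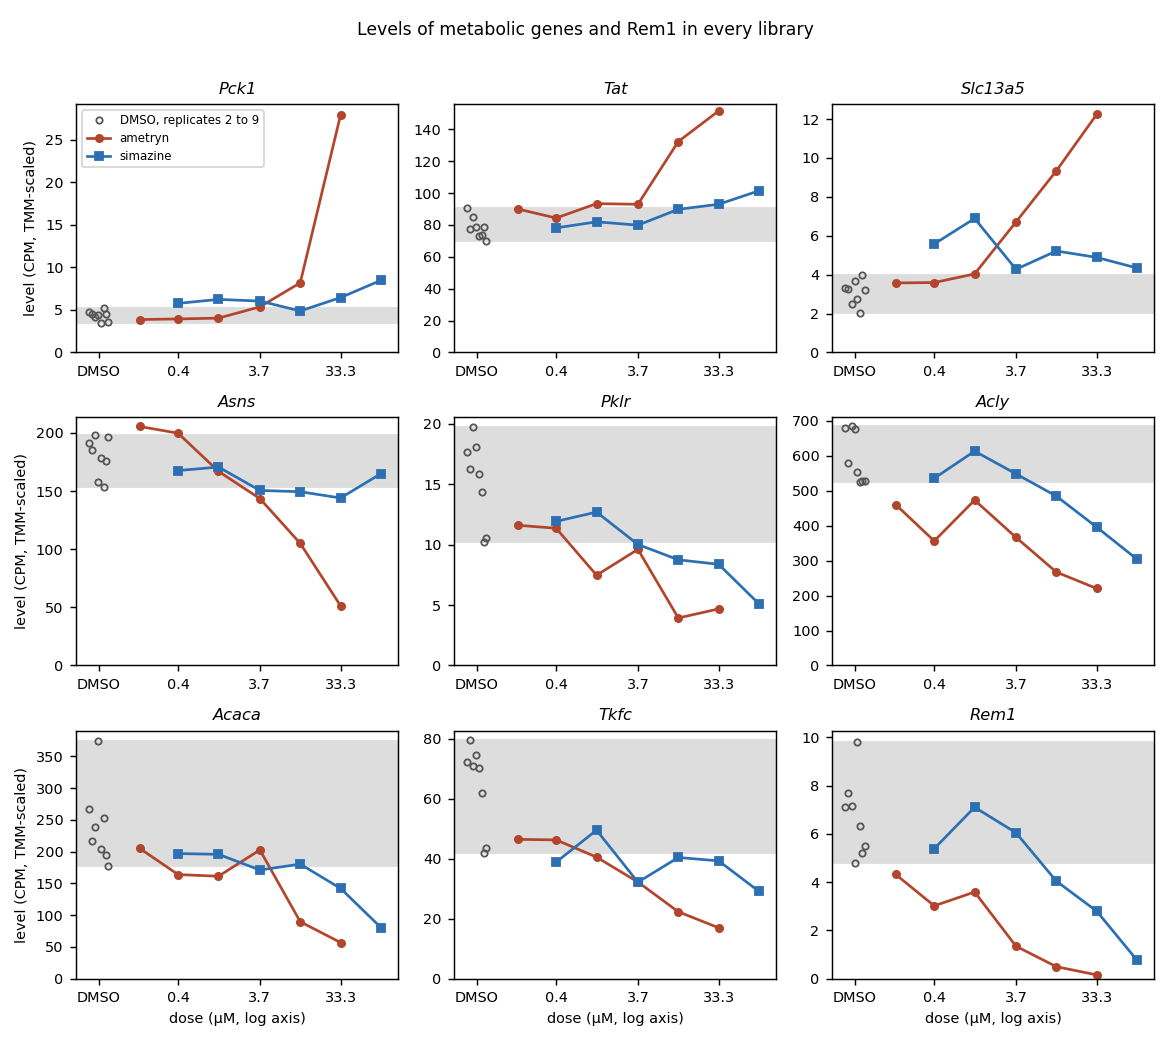
Level of 9 genes (CPM, TMM-scaled, linear axis from 0) against dose (µM, log axis) with ametryn (red circles) and simazine (blue squares), 1 library per point. Open circles are DMSO replicates 2 to 9 and the grey band is their range; with ametryn at 33.3 µM Pck1, Tat and Slc13a5 lie above the band and the other 6 genes below it.

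Of the 15 tested genes of fatty acid synthesis and the steps that feed it, 4 fell with ametryn and none rose. Of all probes, 1.63% fell and 0.941% rose. The list median was -0.49 against 0.01 over all probes, and Pklr, Acly and Acaca were among the genes that fell. Pklr, whose promoter window is shown above, makes pyruvate in the last step of glycolysis. It was at 11.6, 11.4, 7.47, 9.61, 3.93 and 4.69 CPM, against 10.2 to 19.7 CPM with DMSO (median 16.0), and the 4 highest doses lay below that range. Its fitted change was -1.94 ± 0.32 (adjusted p = 0.00379; 0.0712 without the library at 33.3 µM).

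Acly, which makes cytosolic acetyl-CoA from citrate, was at 460, 356, 473, 366, 267 and 220 CPM with rising ametryn. All 6 values were below the DMSO range of 526 to 686 CPM, which for all probes was so in 0.208%. Its fitted change was -1.37 ± 0.20 (adjusted p = 0.0018; 0.0849 without the library at 33.3 µM). Acaca, acetyl-CoA carboxylase, which commits acetyl-CoA to fatty acids, was at 205, 164, 161, 203, 89.4 and 56.7 CPM, against 177 to 375 CPM with DMSO (median 228). The change was -1.91 ± 0.34 (adjusted p = 0.00636; 0.254 without the library at 33.3 µM). Fasn, fatty acid synthase, was at 14.8 to 37.6 CPM with ametryn and 28.0 to 69.8 CPM with DMSO, a fitted change of -1.17 ± 0.40 that did not pass the test (adjusted p = 0.142). Srebf1, the insulin-regulated factor of these genes, had a fitted change of -0.81 ± 0.27 (adjusted p = 0.131). In the libraries of the other 27 chemicals at 0.4 µM, Pklr was at 6.99 to 16.2 CPM (median 12.2) and Acly at 342 to 775 CPM (median 494), so libraries with a low dose of other chemicals also lay below DMSO for these genes.

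Tkfc and Gpd1 also fell. Tkfc, which phosphorylates glyceraldehyde from fructose, was at 46.4, 46.3, 40.5, 32.2, 22.3 and 16.9 CPM against 42.0 to 79.6 CPM with DMSO, a change of -2.07 ± 0.31 (adjusted p = 0.00234; 0.0712 without the library at 33.3 µM). Its levels were below the DMSO range from 1.2 µM upward. Khk, ketohexokinase, the first enzyme of fructose metabolism, did not pass the test (-1.06 ± 0.57, adjusted p = 0.412). Its lowest levels were in the 2 libraries that stood apart, 8.94 CPM with ametryn at 3.7 µM and 16.2 CPM in DMSO replicate 5, and without these libraries the change was -0.94 ± 0.24 (adjusted p = 0.0168). Leaving out both was a choice made after seeing the data. Gpd1, glycerol-3-phosphate dehydrogenase, had a fitted change of -1.33 ± 0.33 (adjusted p = 0.0339), lost without any 1 of DMSO replicates 2 (0.0894), 3 (0.079) and 8 (0.0501) and the ametryn libraries at 11.1 µM (0.1) and 33.3 µM (0.298).

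The stress-response list, whose genes are raised by the factor ATF4 when amino acids are short, had 3 of 18 tested members lower with ametryn and none higher, at a list median of -0.35. Over all probes 1.63% were called lower. Asns, asparagine synthetase, was at 206, 200, 167, 144, 105 and 51.2 CPM in order of dose. DMSO libraries had 153 to 198 CPM (median 182), and the values from 3.7 µM upward lay below all of them. The fitted change of Asns was -1.69 ± 0.20 (adjusted p = 0.000207), and without the library at 33.3 µM it was -1.19 (adjusted p = 0.0712). Fgf21, a hormone that the liver secretes under nutrient stress, was at 32.0, 25.7, 19.4, 32.6, 9.50 and 2.87 CPM against 26.1 to 45.4 CPM with DMSO. Its change was -2.65 ± 0.52 (adjusted p = 0.0104; 0.338 without the library at 33.3 µM, 0.0523 within plate 1). Mthfd2, a mitochondrial enzyme of folate metabolism, was at 2.57 CPM at 33.3 µM and 5.14 to 12.3 CPM at lower doses, against 5.90 to 15.3 CPM with DMSO. Its change of -1.51 ± 0.40 passed narrowly (adjusted p = 0.047) and was lost on leaving out 16 of the 20 libraries in turn. The pro-apoptotic factor gene Ddit3 (0.54 ± 0.25), the stress factor gene Atf3 (0.35 ± 0.24) and the kinase-like regulator Trib3 (-0.80 ± 0.25) did not pass the test, with adjusted p values of 0.322, 0.571 and 0.102. None of the 13 tested genes of the unfolded protein response and none of the 11 heat shock genes was called with ametryn by edgeR. Of these, 2 and 0 had an unadjusted p under 0.05. Over all probes 2.57% were called and 14.8% had an unadjusted p under 0.05.

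Of 18 tested acute phase and inflammation genes, 2 fell and 1 rose with ametryn, against 1.63% and 0.941% of all probes. Lbp, the plasma protein that binds bacterial lipopolysaccharide, was at 126, 149, 109, 105, 88.5 and 64.6 CPM against 120 to 153 CPM with DMSO. The 4 highest doses lay below the DMSO range, and the change was -1.08 ± 0.14 (adjusted p = 0.000468; 0.0849 without the library at 33.3 µM). Lcn2, an iron-siderophore binding protein induced in inflammation, was at 565, 819, 370, 432, 369 and 266 CPM against 516 to 749 CPM with DMSO, a change of -1.45 ± 0.26 (adjusted p = 0.00555; 0.151 without the library at 33.3 µM). Socs3, the feedback inhibitor of cytokine signalling, was at 2.98, 3.25, 3.59, 6.48, 4.59 and 10.1 CPM against 2.08 to 4.79 CPM. Its change was 1.62 ± 0.35 (adjusted p = 0.019), lost without DMSO replicate 3 (0.055) or the library at 33.3 µM (0.457). Of the 12 tested macrophage markers none was called with ametryn and 10 had a negative fitted change, at a median of -0.63. The stellate cell marker Tagln had a change of -2.64 ± 0.52 (adjusted p = 0.0106). The part of these cells in the results was not tested.

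Among 21 tested NRF2 genes, 3 rose and none fell with ametryn, against 0.941% and 1.63% of all probes. The list median was 0.48 against 0.01 over all probes. Srxn1, which repairs oxidised peroxiredoxins, was at 113, 138, 114, 94.8, 123 and 246 CPM against 69.3 to 88.2 CPM. All 6 ametryn values were above the DMSO range, as for 0.136% of all probes. Its change was 1.19 ± 0.27 (adjusted p = 0.022), lost without DMSO replicate 2 (0.0598), DMSO replicate 3 (0.0611) or ametryn at 33.3 µM (0.653). Hmox1, haem oxygenase, was at 518, 551, 895, 524, 830 and 1335 CPM against 256 to 594 CPM. Its change of 1.77 ± 0.45 (adjusted p = 0.0413) was lost on leaving out 10 of the 20 libraries in turn. Nqo1, a quinone reductase often used as the marker of NRF2, was at 47.5 to 83.2 CPM at the 5 lower doses and 123 CPM at 33.3 µM, against 56.3 to 74.1 CPM with DMSO, and did not pass the test (0.76 ± 0.27, adjusted p = 0.155). At 0.4 µM the other 27 chemicals had Srxn1 at 45.8 to 144 CPM (median 94.7) and Hmox1 at 297 to 911 CPM (median 583).

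Against 0.941% of all probes, 1 of the 5 tested AhR genes was called higher with ametryn, Cyp1a1. This P450 of aromatic hydrocarbon metabolism was at 1.19, 0.348, 7.17, 2.68, 3.93 and 17.2 CPM with rising ametryn and 0 to 3.40 CPM with DMSO (median 1.13). The raw counts were 8, 3, 48, 12, 24 and 114, against 0 to 18 with DMSO. The fitted change was 3.69 ± 0.79 (adjusted p = 0.0186; 0.467 without the library at 33.3 µM, 0.0505 within plate 1). Levels at the doses between did not follow the order of dose, since the value at 1.2 µM was above those at 3.7 and 11.1 µM. Cyp1a2, the other AhR-regulated P450 of hepatocytes, was at 33.3 to 95 CPM with ametryn and 31.3 to 87.2 CPM with DMSO, a change of 0.24 ± 0.40 (adjusted p = 0.872). At 0.4 µM, the libraries of the other 27 chemicals held Cyp1a1 at 0 to 12.7 CPM (median 3.02).

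Of the 22 tested CAR and PXR genes, Cyp3a2 and Gsta2 were called higher and Cyp2c11 lower with ametryn, and the median of the list was 0.15 with ametryn and 0.14 with simazine. Over all probes 2.57% were called with ametryn. Cyp2b2, a P450 that CAR activators raise in rat liver, was at 0.491 to 2.12 CPM with ametryn and 0.679 to 3.25 CPM with DMSO, a fitted change of -0.35 ± 0.70 (adjusted p = 0.897). The PXR target Cyp3a23/3a1 was at 13.4 to 37.8 CPM against 14 to 29.5 CPM, a change of 0.23 ± 0.28 (adjusted p = 0.812). A separate entry, Cyp3a1, had 3728 counts at 33.3 µM of ametryn against 250 for Cyp3a23/3a1, and was not called either. Cyp3a2, a male-predominant P450, was at 484, 457, 577, 517, 604 and 642 CPM against 413 to 516 CPM, a change of 0.57 ± 0.14 (adjusted p = 0.0293). It was not called without DMSO replicate 2 (0.0815), DMSO replicate 3 (0.0732) or ametryn at 11.1 µM (0.0692) or 33.3 µM (0.23). Cyp2c11, the main male-specific P450 of rat liver, was at 445, 406, 488, 398, 341 and 313 CPM against 450 to 503 CPM with DMSO, a change of -0.60 ± 0.12 (adjusted p = 0.0111; 0.24 without the library at 33.3 µM, 0.0909 within plate 1). Gsta2, a glutathione transferase, was at 325 CPM at 33.3 µM and 209 to 289 CPM at the other doses, against 206 to 269 CPM, a change of 0.56 ± 0.13 (adjusted p = 0.0234). Its call ended without DMSO replicate 3 (0.0624) or the library at 33.3 µM (0.375). It was the only 1 of 16 tested glutathione transferases called with ametryn.

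**Figure D2:**
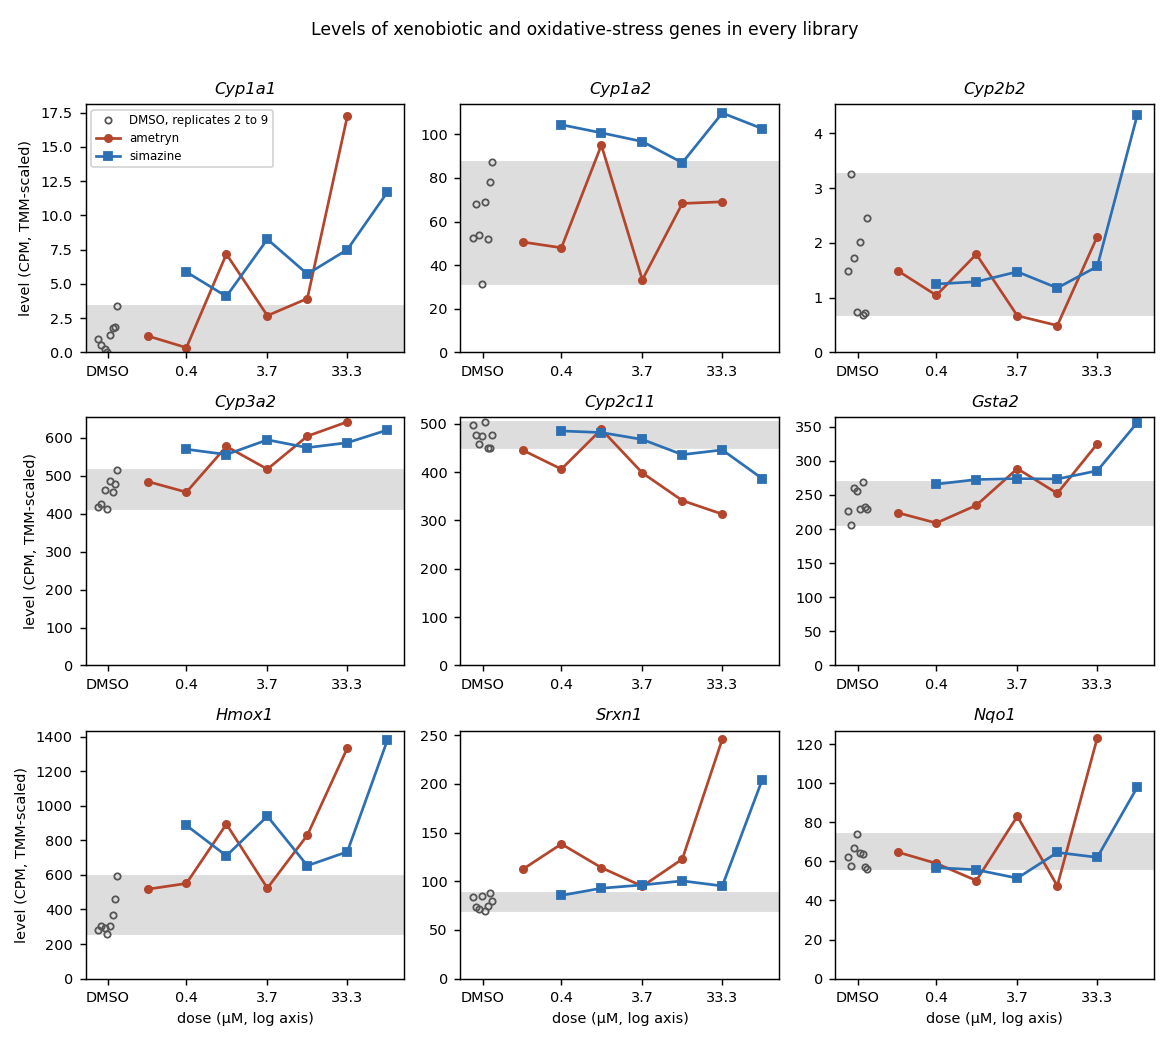
Level of 9 genes of foreign-compound and oxidant metabolism (CPM, TMM-scaled, linear axis from 0) against dose (µM, log axis) with ametryn (red circles) and simazine (blue squares), 1 library per point. Open circles are DMSO replicates 2 to 9 with their range as a grey band; Cyp2b2 stays within or near the band at all but the 100 µM dose of simazine, while Hmox1 and Srxn1 lie highest at the top dose of each triazine.

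Of 31 tested PPAR alpha genes, 5 fell with ametryn and none rose, against 1.63% and 0.941% of all probes. The list median was -0.29. Besides Fgf21 the genes that fell included Vnn1, Cd36 and Plin2. Vnn1, the pantetheinase vanin, was at 86.8, 79.4, 63.7, 44.0, 64.9 and 36.3 CPM against 77.4 to 104 CPM with DMSO, a change of -1.29 ± 0.24 (adjusted p = 0.00717; 0.219 without the library at 33.3 µM). Cd36, a fatty acid transporter, had a change of -1.71 ± 0.39 (adjusted p = 0.0228), lost without DMSO replicate 2 (0.0515), DMSO replicate 3 (0.0539) or the ametryn libraries at 11.1 µM (0.0769) and 33.3 µM (0.121). Plin2, which coats lipid droplets, had a change of -0.99 ± 0.23 (adjusted p = 0.024; 0.532 without the library at 33.3 µM). Cpt1a, which admits fatty acids to mitochondria, and Pdk4, which spares glucose in fasting, did not pass the test, at 0.40 ± 0.33 (adjusted p = 0.671) and 0.06 ± 0.40 (adjusted p = 0.971).

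Single members were called lower with ametryn in 4 further lists, and over all probes 1.63% were called lower. Akr1d1, the reductase that acts on steroid hormones and bile acid precursors, is in both the steroid list (1 of 12) and the bile acid list (1 of 7), at -1.48 ± 0.33 (adjusted p = 0.023; lost without DMSO replicate 2 at 0.067, DMSO replicate 3 at 0.055, ametryn at 11.1 µM at 0.0662 and ametryn at 33.3 µM at 0.323). Fdft1, squalene synthase, was the called member of 21 cholesterol synthesis genes, at -0.81 ± 0.20 (adjusted p = 0.0391), and lost its call on leaving out 11 of the 20 libraries in turn. Ccna2, cyclin A2, was the called member of 15 cell cycle genes, at -3.18 ± 0.60 (adjusted p = 0.00783; 0.256 without the library at 33.3 µM), on 1 count at 33.3 µM and 144 counts over the 8 DMSO libraries. None of the 12 tested p53 genes was called, while 3 higher and 1 lower had an unadjusted p under 0.05. Over all probes 2.57% were called and 14.8% had an unadjusted p under 0.05. Cyp7a1, the rate-limiting enzyme of bile acid synthesis, had at most 0.113 CPM with DMSO and was at 0 in all ametryn libraries but that of 3.7 µM (0.224 CPM).

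**Figure D3:**
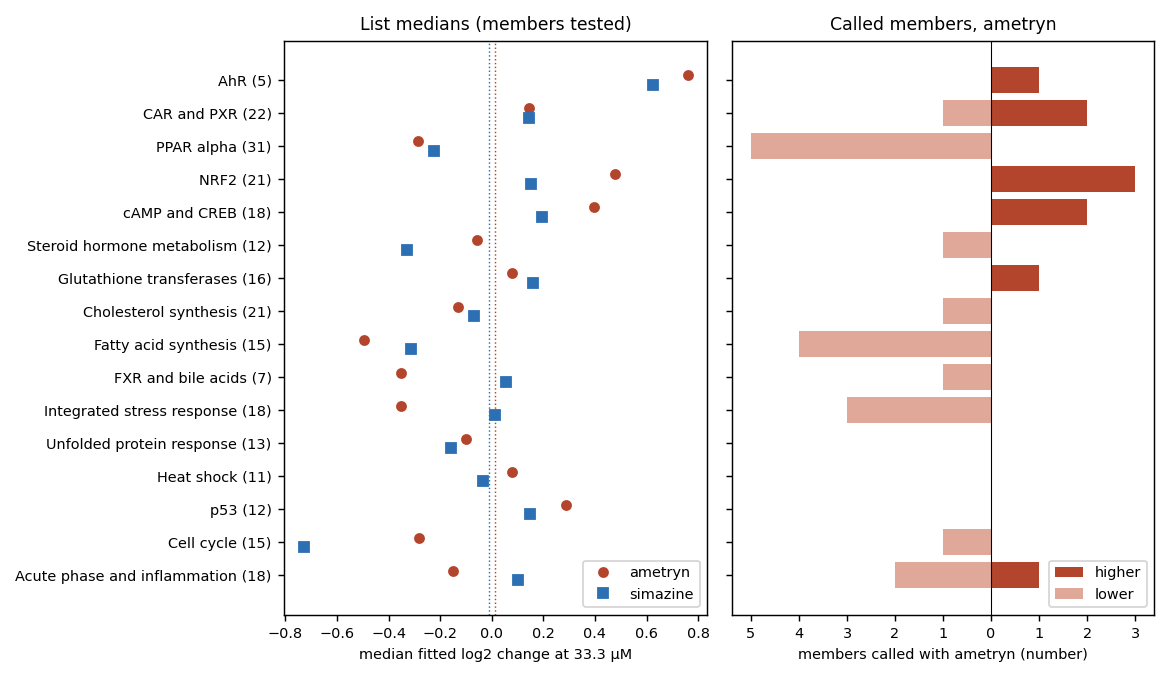
Left, median fitted log2 change at 33.3 µM of each gene list with ametryn (red circles) and simazine (blue squares), with the number of tested members in brackets and dotted lines at the median of all tested probes. Right, number of members called higher (dark bars) or lower (light bars) with ametryn; the PPAR alpha, fatty acid synthesis and stress-response lists hold 5, 4 and 3 members called lower and none called higher.

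The fitted change of Rem1, the gene of a small GTP-binding protein of the RGK family, was larger in size than that of any gene above. It was at 4.32, 3.01, 3.59, 1.34, 0.491 and 0.151 CPM with rising ametryn, against 4.79 to 9.80 CPM with DMSO (median 6.73). The raw counts behind these levels were 29, 26, 24, 6, 3 and 1, against 13 to 59 with DMSO. All 6 ametryn libraries lay below all 8 DMSO libraries. At 33.3 µM the ratio of DMSO to ametryn was 43.9, with an exact 95% counting interval of 7.82 to 1740. The fitted change was -5.15 ± 0.59 (adjusted p = 0.000207), and it stayed called without the library at 33.3 µM (-5.11, adjusted p = 0.0375). In the other 27 chemicals at 33.3 µM Rem1 was at 0.323 to 4.46 CPM (median 2.13), so every one of these libraries lay below the DMSO range too. Genes that fell on few counts were Col5a3, a fibrillar collagen chain, with 3 counts at 33.3 µM and a ratio of DMSO to ametryn of 17.0 (5.78 to 83.0), and the steroid dehydrogenase gene Hsd3b2, with 0 counts at 33.3 µM and 101 over the 8 DMSO libraries, at least 4.75-fold lower than with DMSO when 3 counts are taken as the limit for that library. Fosl1, a subunit of the AP-1 factor, rose, at 51.2, 74.1, 44.2, 50.1, 95.8 and 148 CPM against 27.3 to 51.5 CPM, a change of 1.78 ± 0.29 (adjusted p = 0.00319; 0.218 without the library at 33.3 µM).

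With simazine, no probe of the 11055 had a dose trend that passed the test with edgeR (0.0%), over a dose range that reached 100 µM. At an unadjusted p under 0.05 there were 1230 probes (11.1%). DESeq2 called 94 (0.85%), 39 higher and 55 lower, in the same design. In the fit without the ametryn library at 1.2 µM, edgeR called 16, and when each chemical was fitted alone it called 27. Within plate 1 and within plate 2 it called 0, with 753 and 720 probes at an unadjusted p under 0.05. The smallest adjusted p of a gene was 0.124, shared by 13 probes, among them those of Gpd1, Pklr, Rem1, Gsta2, Trim59 and Fgg.

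Gpd1 was at 260, 318, 233, 265, 235 and 169 CPM with rising simazine, against 311 to 628 CPM with DMSO, and 5 of the 6 values lay below that range. Its fitted change at 33.3 µM was -1.06 ± 0.22. Pklr was at 11.9, 12.7, 10.0, 8.75, 8.38 and 5.09 CPM against 10.2 to 19.7 CPM, with a fitted change of -1.05 ± 0.22. The 4 highest doses of simazine lay below all DMSO libraries, as did the 4 highest of ametryn. Rem1 was at 5.39, 7.10, 6.04, 4.04, 2.79 and 0.754 CPM, and the 3 libraries from 11.1 µM upward, all on plate 1, were below the DMSO range of 4.79 to 9.80 CPM. The fitted change of Rem1 was -1.44 ± 0.30. Fgg, the gamma chain of fibrinogen, was at 4596, 5285, 5257, 5482, 6221 and 5745 CPM against 3461 to 4626 CPM with DMSO, so that 5 of 6 libraries were above the range, and had a fitted change of 0.52 ± 0.10. Gsta2 was at 266, 273, 274, 273, 286 and 356 CPM against 206 to 269 CPM, a fitted change of 0.49 ± 0.09.

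Cyp1a1 was at 5.87, 4.09, 8.26, 5.72, 7.50 and 11.7 CPM with rising simazine, all above the DMSO range of 0 to 3.40 CPM, while 1.26% of all probes had all 6 simazine libraries above all DMSO libraries and 0.579% below. Its fitted change was 2.74 ± 0.59 (adjusted p = 0.127). The lowest dose was already above DMSO, and at 0.4 µM the other 27 chemicals ranged from 0 to 12.7 CPM. Cyp1a2 was at 87.0 to 110 CPM against 31.3 to 87.2 CPM, a change of 0.84 ± 0.28 (adjusted p = 0.273). Hmox1 was at 887, 711, 940, 654, 734 and 1380 CPM, all above the DMSO range of 256 to 594 CPM, a change of 1.30 ± 0.31 (adjusted p = 0.142). Cyp2b2 was at 1.18 to 1.57 CPM up to 33.3 µM and 4.34 CPM at 100 µM, against 0.679 to 3.25 CPM with DMSO, a change of 0.59 ± 0.44 (adjusted p = 0.615). Cyp3a2 was at 556 to 621 CPM against 413 to 516 CPM, a change of 0.40 ± 0.09 (adjusted p = 0.132). Compared with DMSO regardless of dose, the 6 simazine libraries gave 266 called probes (2.41%), 154 higher and 112 lower.

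At 100 µM, a dose that ametryn did not have, simazine had Acaca at 80.2 CPM and Acly at 303 CPM. These levels were below the DMSO ranges of 177 to 375 and 526 to 686 CPM. Srxn1 was at 204 CPM and Nqo1 at 98.1 CPM at this dose, above DMSO maxima of 88.2 and 74.1 CPM. Pck1 was at 8.49 CPM, above the DMSO maximum of 5.2 CPM, and Asns at 165 CPM, inside the DMSO range. Each of these is a single library and has no test of its own. The fitted changes of the whole series were -1.0 ± 0.22 for Acaca (adjusted p = 0.129), -0.53 ± 0.14 for Acly (0.197), 0.61 ± 0.18 for Srxn1 (0.224), 0.92 ± 0.23 for Pck1 (0.169) and -0.41 ± 0.12 for Asns (0.224).

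The 2 herbicides could be compared at the 5 doses that both had, from 0.4 to 33.3 µM, which is the 1 pair of compounds considered here. The doses from 0.4 to 3.7 µM were on different plates for the compounds, and those of 11.1 and 33.3 µM were on plate 1 for both. The slopes differed for 1 of 11055 probes (0.00905%), that of Rem1, where the difference of ametryn minus simazine was -4.12 at 33.3 µM (95% interval -5.29 to -2.95, adjusted p = 0.00941). The levels of Rem1 at 11.1 µM were 0.491 CPM with ametryn and 4.04 CPM with simazine, and at 33.3 µM they were 0.151 and 2.79 CPM. Within plate 1 the difference was -4.07 and did not pass the test (adjusted p = 0.391). It was also lost without ametryn at 33.3 µM (0.168), simazine at 11.1 µM (0.0643) or simazine at 33.3 µM (0.0553). At an unadjusted p under 0.05 the slopes differed for 794 probes (7.18%), and DESeq2 called 43 probes (0.389%), 13 higher and 30 lower with ametryn, though it gave no adjusted p for Rem1.

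For Pck1, Asns, Tat, Acly, Fosl1 and Lbp the interval of the difference lay on 1 side of 0, but the adjusted p did not pass. Pck1 was at 8.19 CPM with ametryn and 4.88 CPM with simazine at 11.1 µM, and at 28.0 and 6.46 CPM at 33.3 µM, with a difference of slopes of 1.72 (0.94 to 2.50, adjusted p = 0.132). Asns was at 105 and 149 CPM at 11.1 µM and at 51.2 and 144 CPM at 33.3 µM, with a difference of -1.11 (-1.53 to -0.68, adjusted p = 0.0789). The difference was 0.72 for Tat (0.42 to 1.01, adjusted p = 0.0934), -0.96 for Acly (-1.40 to -0.52, 0.132), 1.77 for Fosl1 (1.08 to 2.46, 0.0789) and -0.85 for Lbp (-1.16 to -0.54, 0.078). Without DMSO replicate 5 and the ametryn library at 3.7 µM, the 2 libraries that stood apart, 77 probes differed, among them those of these 6 genes, at adjusted p values from 0.00532 for Asns to 0.0233 for Acly. This fit was chosen after seeing the data. Leaving out DMSO replicate 5 alone gave 3 probes and leaving out ametryn at 3.7 µM alone gave 9.

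For 6 genes of foreign-compound metabolism and the oxidant response the interval of the difference included 0. The difference was 0.68 for Cyp1a1 (-1.35 to 2.71), 0.13 for Cyp3a2 (-0.20 to 0.47), 0.33 for Cyp3a23/3a1 (-0.39 to 1.05), -0.13 for Cyp2b2 (-1.81 to 1.56), 0.16 for Gsta2 (-0.16 to 0.48) and 0.60 for Hmox1 (-0.61 to 1.82). The intervals of Cyp3a2 and Gsta2 end short of 0.5 log2 units on either side. That width is about the size of the fitted changes of these 2 genes, so equal responses are not shown. The intervals of Cyp1a1 and Cyp2b2 span more than 3 log2 units and leave the comparison undecided too. For 3 others the interval lay on 1 side of 0 and the adjusted p did not pass, at -0.47 for Cyp2c11 (-0.75 to -0.19, adjusted p = 0.355), 0.72 for Nqo1 (0.08 to 1.35, 0.625) and 1.0 for Srxn1 (0.42 to 1.59, 0.347). Gpd1, at -0.25 (-1.0 to 0.49), also had an interval that included 0.

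**Figure D4:**
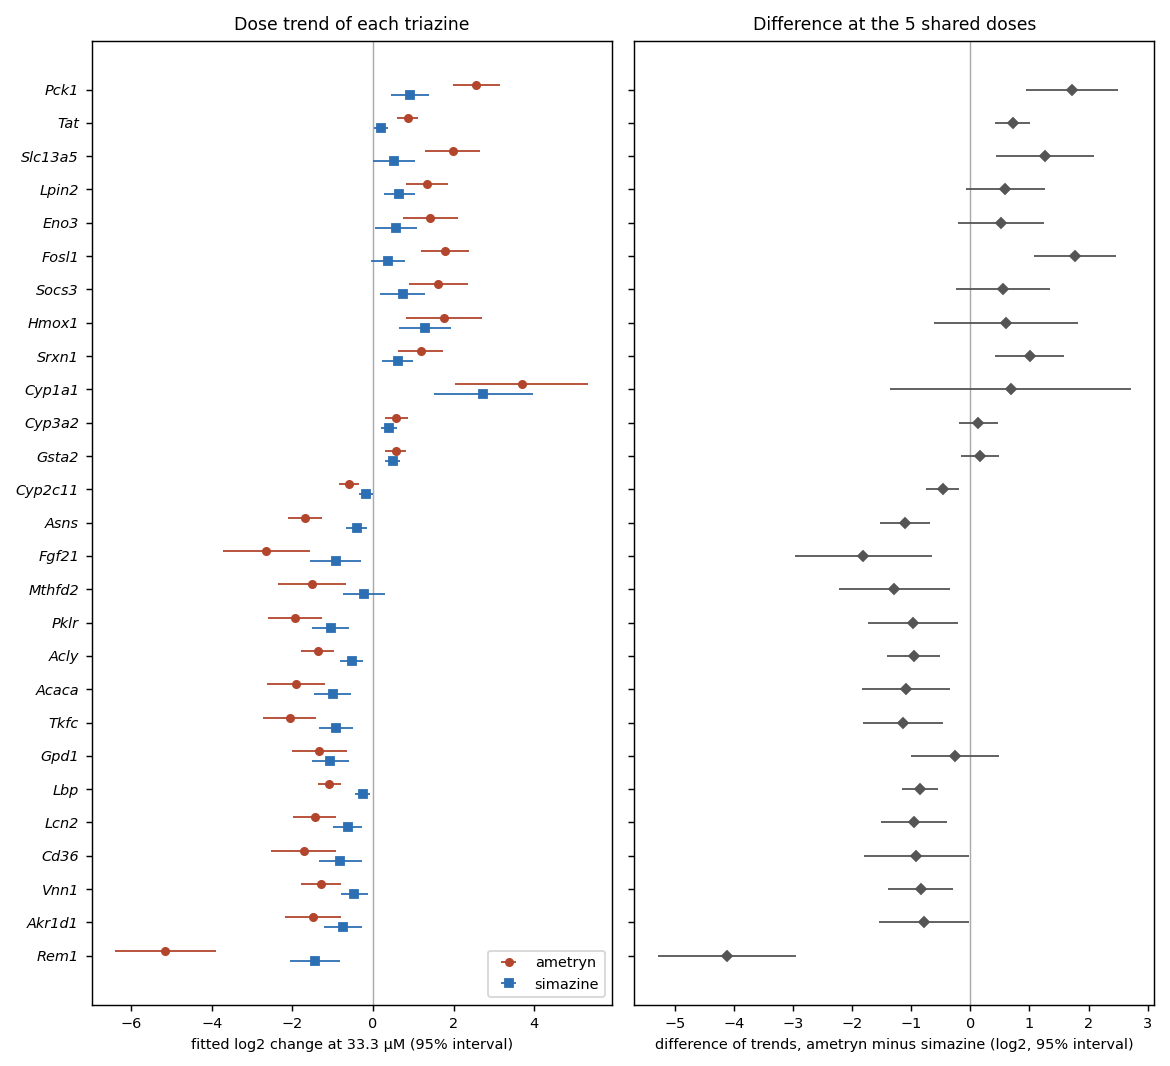
Left, fitted log2 change at 33.3 µM of 27 genes with ametryn (red circles) and simazine (blue squares), with 95% intervals. Right, difference of the trends, ametryn minus simazine, over the 5 shared doses with its 95% interval; Rem1, at -4.12, lies farthest from 0 and is the gene whose difference passed the test.

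The average of both slopes over the 5 shared doses was called for 63 probes (0.57%), 16 higher (0.145%) and 47 lower (0.425%), and 1333 (12.1%) had an unadjusted p under 0.05. Higher were Pck1, at 1.71 ± 0.28 (adjusted p = 0.0163), Slc13a5, at 1.40 ± 0.30 (0.044), and Fgg, at 0.61 ± 0.12 (0.0319). Lower were Rem1, at -3.14 ± 0.35 (0.000801), Pklr, at -1.51 ± 0.26 (0.0165), Tkfc, at -1.61 ± 0.24 (0.01), Asns, at -1.15 ± 0.15 (0.00479), Acaca, at -1.38 ± 0.27 (0.0323) and Lbp, at -0.69 ± 0.11 (0.0163). When each of the 18 libraries was left out in turn, the call of Slc13a5 was lost in 13 fits and those of Fgg and Acaca in 8 each. For Pklr it was lost in 5, for Lbp in 3, for Pck1 and Tkfc in 2 each, for Asns in 1 and for Rem1 in 0. Since the ametryn slope enters this average and simazine alone gave no call, a call here does not show a trend with both. Without the ametryn library at 33.3 µM 1 probe was called, and within plate 1 none was with edgeR (771 at an unadjusted p under 0.05).

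Set among the 29 chemicals that had a library at 33.3 µM, 1 each, ametryn had the highest level of Pck1, Tat, Slc13a5, Lpin2, Eno3, Socs3 and Hmox1 and the lowest of Asns, Fgf21, Mthfd2, Trib3, Acaca, Rem1 and Col5a3. Most of these genes were named through calls that rest on this same ametryn library. An extreme rank therefore follows in part from how they were chosen. The share of all probes with such a rank was not computed. The level of Rem1 rests on 1 count and that of Col5a3 on 3 counts. For Pck1 the other 27 chemicals reached at most 9.20 CPM at this dose (median 4.51), against 28.0 CPM with ametryn and 6.46 CPM with simazine. For Asns they lay between 103 and 309 CPM (median 157), against 51.2 and 144 CPM. In the 14 other dose-series libraries in column 1 of a plate, where the ametryn library at 33.3 µM also was, Pck1 was at 2.22 to 7.22 CPM and Asns at 103 to 343 CPM. With simazine at 33.3 µM the rank of Pck1 from the top was 8 of 29 and that of Asns 19. For Cyp2b2, whose other 27 values ran from 0.215 to 68.9 CPM (median 5.57), ametryn ranked 21 and simazine 23.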

How the data were processed

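The authors deposited whole-number counts per probe for each library, made with Bowtie per the submitters' processing notes. The aligner's version, the build and any filters are not given in the sources used here. From these counts, 11055 of 22253 probes were tested, those that reached 1.741 CPM in 6 or more of the study's libraries, which at the median total of 5745085 is 10 counts. Libraries were grouped by the chemical and dose in their titles, and DMSO replicate 1 was left out. All p-values come from edgeR 4.0.16 (R 4.3.3): TMM scaling and the quasi-likelihood F test, in 1 model with plate and a slope on log2(1 + dose) for each triazine over 20 libraries (15 residual degrees of freedom), or over the 5 shared doses (13) for the average and the difference of slopes. Adjusted p values follow Benjamini and Hochberg over all tested probes, with a threshold of 0.05. DESeq2 1.42.0 and other scalings, filters, designs and left-out libraries were alternatives. The code was tested on simulated data. No pair of the 20 libraries had identical counts, and every pair differed by more than sampling noise (chi-square over its degrees of freedom at least 2.49).

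Genes were named by rule: per test up to 10 called probes in each direction, up to 4 called members of each gene list, and a fixed panel. Not every gene that the rule selected is described here. Car12 (2.89 ± 0.69) and Adm (2.10 ± 0.45), for example, were also called higher with ametryn. Khk, Fbp1, Slc2a2, Tagln and the genes under other observations fall outside the rule and were chosen after their values were seen. The members and lists were chosen with earlier results of these data known. Levels are CPM with TMM factors over all libraries of the study, and the library score is the first principal component over 5535 probes (28.4% of the variance). Some measured items are not reported here. Counting intervals cover counting error only.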

Additional observations from a re-analysis of the deposited data

Results flagged for a closer look

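Among the 8 DMSO libraries, 4 of the 53 genes examined had 1 library whose gap to the next was larger than Dixon's 95% limit for 8 values, and chance alone gives such a gap in about 1 of 20 genes. In replicate 5, which stood apart on the first principal component, these were Acaca at 374.6 CPM and Plin2 at 912.2 CPM. The others were Srebf1 in replicate 4 at 27.88 CPM and Cyp7a1 in replicate 7 at 0.1131 CPM, where the other 7 libraries had none. Acaca and Plin2 remained called with ametryn without replicate 5.

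The dose trends of ametryn and simazine differed for Rem1, by -4.12 on the log2 scale at 33.3 µM (ametryn minus simazine, adjusted p = 0.00941 with edgeR). All 6 ametryn and 3 of 6 simazine libraries lay below the 8 DMSO libraries.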

How the results depend on the processing

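Counts of called probes depended on the design. For ametryn (284), DESeq2 gave 512, a comparison of treated with DMSO regardless of dose 4, DMSO replicate 1 included 42, leaving out the highest dose 1, plate 1 alone 80, the library score as a covariate 1310 and ametryn fitted alone 85. For simazine (0), these were 94 with DESeq2, 162 with dose rank in place of dose, 266 regardless of dose, 135 with the score and 27 fitted alone. For the average of both (63), they were 325, 222 and 199 with DESeq2, dose rank and regardless of dose, 9 with DMSO replicate 1, 0 without the highest dose, 0 on plate 1 and 886 with the score. For the difference (1), they were 43 with DESeq2 and 219 with the score, and 0 with dose rank, regardless of dose, with DMSO replicate 1, without the highest dose and on plate 1. Before adjustment, 281 to 1515 probes were under 0.05 in the fits that gave 0. Without DMSO replicate 5 and ametryn at 3.7 µM together, an alternative chosen after seeing the data, the counts were 1005, 58, 431 and 77. Leaving out 1 library at a time gave 2 to 465 for ametryn, 0 to 16 for simazine, 1 to 187 for the average and 0 to 13 for the difference. The lowest for ametryn and the average came without ametryn at 33.3 µM and the highest without ametryn at 3.7 µM. The average fell to 5 without DMSO replicate 3 or simazine at 33.3 µM and to 7 without DMSO replicate 2. Apart from fits with fewer libraries, the cause of these shifts was not tested.

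Of the 72 named genes called with ametryn, 72 kept the call with DESeq2, 68 with dose rank, 63 with no filter on low counts, 38 on plate 1, 23 with DMSO replicate 1 and 0 regardless of dose. DESeq2 gave no adjusted p for 2 of the 35 named calls of the average and for the 1 of the difference. With DMSO replicate 1 included the fitted change turned for Gsta2 (-0.034) and Trim59 (-0.759). No paired analysis was possible because the labels number only the DMSO libraries. Depth limits Rem1, Ccna2, Col5a3 and Hsd3b2, which had at most 3 counts at 33.3 µM of ametryn.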

Other observations

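Genes outside the lists also fell with ametryn, and these were chosen after their values were seen. Of 18 cytosolic aminoacyl-tRNA synthetases, which load amino acids onto tRNAs, 14 were tested and 4 were called lower: Sars (-0.94 ± 0.22, adjusted p = 0.0301 with edgeR), Cars (-0.75 ± 0.16, 0.0148), Eprs (-0.59 ± 0.15, 0.0412) and Aars (-0.58 ± 0.15, 0.0462). Over all probes 1.63% were called lower with ametryn. The median of the family was -0.40 with ametryn and -0.11 with simazine, where none was called. Pycr1, an enzyme of proline synthesis, went from 34.1 CPM at 0.14 µM to 10.9 CPM at 33.3 µM, a change of -1.45 ± 0.23 (adjusted p = 0.00273). Gbp5, a guanylate-binding protein, was at 39.3, 39.6, 42.4, 23.0, 31.9 and 8.62 CPM with rising ametryn (-2.04 ± 0.33, adjusted p = 0.00313). Gbp2 changed by -2.20 ± 0.48 (0.0207), Ifit2 by -1.56 ± 0.35 (0.0223) and Ubd by -2.15 ± 0.54 (0.0386), whereas Oas1b, at -1.19 ± 0.39 (0.131), did not pass. Without the ametryn library at 33.3 µM none of these genes was called (adjusted p from 0.186 for Gbp5 to 0.791 for Oas1b). Of the tRNA synthetases, Cars alone kept its call on leaving out any 1 other library. The call of Aars was lost on leaving out 15 of the 20 libraries in turn, that of Eprs 12 and that of Sars 4. The calls of Gbp2 (0.069) and Ifit2 (0.0602) also ended without DMSO replicate 2, and that of Gbp2 without DMSO replicate 3 (0.0519). That of Ubd was lost on leaving out 9 of the 20 libraries in turn, and Oas1b was called without ametryn at 11.1 µM (0.0152).

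Egln1 was high already at the lowest dose of simazine. This oxygen-sensing prolyl hydroxylase was at 18.3 to 27.4 CPM against 4.79 to 12.1 CPM, with a fitted change of 1.15 ± 0.33 (adjusted p = 0.218). At 0.4 µM the other 27 chemicals had it at 6.29 to 31.0 CPM (median 15.4), and the median of these wells was above all DMSO libraries. The part of well position in this was not tested.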
